A study of Rattus norvegicus with 8 samples.

Results

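The motile cilia and axoneme genes were taken as all array probes outside controls whose name on the array began with Dnah, Dnai, Dnali, Tekt, Rsph, Cfap, Spef or Ropn1, or with Spag, Ift or Bbs and a digit, or was Foxj1, Casc1 or Spa17. The pattern found 64 of 41012 probes, for 38 of 35402 genes: 29 axonemal genes with 54 probes and 9 transport genes (Ift and Bbs) with 10 probes. No Rsph, Cfap or Spef name was among them. The members were chosen by their names, under a pattern selected on the log2 ratios of occlusion against control on these arrays, so this contrast is given for the members as a description and supports nothing.

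The RNA came from the medial thalamus of 8 male Sprague-Dawley rats of 277 g, all anesthetized with urethane and all fitted with a tracheal cuff. In the 4 occlusion animals the cuff closed the trachea for 2 to 4 breaths, was released for at least 15 breaths, and this was repeated for 10 minutes, after which the brain was taken. The 4 control animals wore a cuff that was left uninflated, and their brains were taken 70 minutes after the surgical setup. Each animal was hybridised in Cy5 on 1 two-colour Agilent array against a Cy3 pool of all 8 animals, and values are log2 ratios of the animal to that pool, so a value of 0 is the level of the pool. Slide 1 held occlusion 1 and 2 with control 3 and 4, and slide 2 held occlusion 3 and 4 with control 1 and 2.

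Median Cy5 signal over background was between 3.65 and 4.67, and 68.3% to 80.2% of spots exceeded background clearly. The lowest share was in control 1, which also had the most outlier spots, 853 against 136 to 423 on the other arrays. There were 4 arrays per group, and their number limits the precision. Of 14 thalamic relay neuron markers all but Tnnt1 were well above background on every array, but their mean was -1.79 in control 3 against -0.33 to 0.23 in the other animals. In the same animal the mean of 9 cortical neuron genes was 1.59, and that of 12 genes of meninges and fibroblasts 0.96. Control 3 therefore stood apart from the other 7 animals against its tissue label, and most results that rest on it are given with and without it. Counts by unadjusted p and by overlap of the groups are given with it only.

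Motile cilia beat by means of an axoneme of doublet microtubules that carry dynein arms, which are motors built of heavy, intermediate and light chains. Tektins are filament proteins inside the doublets, and Foxj1 is the transcription factor that switches on the genes of motile cilia. In the brain such cilia are carried by the ependymal cells that line the ventricles. Intraflagellar transport (Ift) proteins and the BBSome (Bbs) build and serve motile and primary cilia alike, and most neurons and glia carry a primary cilium.

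The promoters of the 4 tektins among the members are shown because all 4 were measured and had the same order of animals in large part. The sequences are from RefSeq on GRCr8, 250 bases before to 50 after the start of the gene, in the direction of transcription. Tekt1 lies at chr10:57479072-57479371 on the minus strand, Tekt2 at chr5:143907675-143907974 on the minus strand, Tekt3 at chr10:48228609-48228908 on the plus strand and Tekt4 at chr10:14992034-14992333 on the plus strand. Capitals mark a match to GTTGCCA in Tekt1, to GTAAACA (other strand) in Tekt3 and to GTTGC and its reverse complement GCAAC with 3 bases between them in Tekt2 and Tekt4.
Tekt1: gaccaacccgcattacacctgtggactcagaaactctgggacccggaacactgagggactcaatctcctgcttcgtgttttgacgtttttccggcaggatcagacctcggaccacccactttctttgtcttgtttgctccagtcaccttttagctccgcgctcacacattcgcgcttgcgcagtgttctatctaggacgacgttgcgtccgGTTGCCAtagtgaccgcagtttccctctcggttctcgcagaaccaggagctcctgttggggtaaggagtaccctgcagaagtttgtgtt
Tekt2: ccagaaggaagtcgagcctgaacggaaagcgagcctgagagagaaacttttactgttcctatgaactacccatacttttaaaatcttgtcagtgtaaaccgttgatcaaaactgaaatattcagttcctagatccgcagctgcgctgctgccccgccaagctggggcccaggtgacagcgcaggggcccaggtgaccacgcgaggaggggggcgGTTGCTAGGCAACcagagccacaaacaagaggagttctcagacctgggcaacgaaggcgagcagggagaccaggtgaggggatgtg
Tekt3: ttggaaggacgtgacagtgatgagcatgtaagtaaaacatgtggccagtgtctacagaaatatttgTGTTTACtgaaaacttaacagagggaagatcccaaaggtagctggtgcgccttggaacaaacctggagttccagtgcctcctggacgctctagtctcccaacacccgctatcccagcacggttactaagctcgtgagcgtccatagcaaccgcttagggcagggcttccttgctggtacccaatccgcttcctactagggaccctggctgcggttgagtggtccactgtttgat
Tekt4: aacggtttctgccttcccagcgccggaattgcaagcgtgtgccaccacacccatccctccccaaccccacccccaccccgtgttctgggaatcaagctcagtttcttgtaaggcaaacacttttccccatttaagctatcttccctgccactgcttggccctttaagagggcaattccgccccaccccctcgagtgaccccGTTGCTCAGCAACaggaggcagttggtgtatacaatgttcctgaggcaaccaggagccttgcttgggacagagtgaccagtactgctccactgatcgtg

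Of the 38 members, 29 had a promoter in the table (23 axonemal and 6 transport), which holds 27457 windows of 300 bases. GTTGCCA, the half-site of RFX factors, which act in ciliated cells, was in 5 of 23 axonemal promoters (21.7%), in 2 of 6 transport promoters (33.3%) and in 4.45% of all promoters, both strands searched. GTAAACA, a site of forkhead factors such as Foxj1, was in 2 of 23 axonemal promoters (8.7%), 0 of 6 transport promoters and 3.76% of all. The gapped X-box of RFX factors, a motif of 14 letters, was in 0 of 23, 0 of 6 and 0.2% of all.

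After these 3 searches, and after the letters of the Tekt2 and Tekt4 promoters had been read, GTTGC followed by GCAAC after any 3 bases, or after any 4, was added. The form with 3 bases between the half-sites was in 5 of 23 axonemal promoters (Dnah6, Dnah7, Dnai2, Tekt2 and Tekt4; 21.7%), 0 of 6 transport promoters and 0.248% of all. The form with 4 bases was in 0 of 23 and 0 of 6, and in 0.189% of all. Since the 3-base form was written from member promoters, its share in the members is a description of those letters. Among axonemal genes that match the pattern by current symbol only, the 3-base form was in 0 of 34 promoters and the 4-base form in 2 of 34 (5.88%). A match is not a binding site, and no binding was measured here.

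Of the 38 genes, 35 passed the filter on dim probes and were tested, 26 axonemal and 9 transport. Dnah5, Dnah10 and Sun5 (Spag4l on the array) did not pass it, as none of their probes was well above background on 4 arrays. By limma with Benjamini-Hochberg adjustment over 26897 genes, 0 members passed an adjusted p of 0.05, beside 0% of all genes, and the smallest adjusted p of any gene was 0.974.

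The log2 difference, occlusion minus control, was above 0 for 22 of 26 axonemal genes, with a median of 0.41 and a range of -0.22 to 0.95. It was above 0 for 7 of 9 transport genes, with a median of 0.06 and a range of -0.05 to 0.11. Of all genes 50.2% had a difference above 0, and their median was 0.001. At an unadjusted p under 0.05, two-sided, 14 axonemal genes were higher and 1 was lower, beside 1.83% and 1.29% of all genes (3.12% in either direction), and 0 transport genes were called. RNA from bulk tissue cannot tell fewer cells of a type from less RNA per cell.

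**Figure D1:**
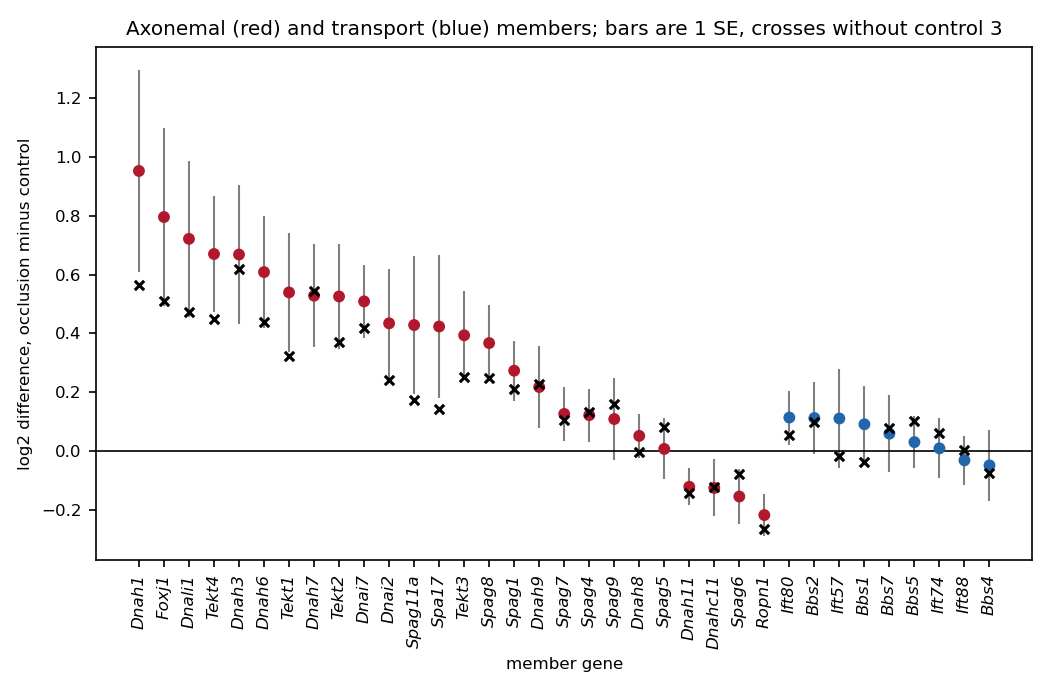
The log2 difference between the mean of 4 occlusion and 4 control animals (vertical axis) for each of 35 member genes, with bars of 1 SE and crosses for the value without control 3. Axonemal genes run from 0.95 for Dnah1 to -0.22 for Ropn1, and transport genes from 0.11 to -0.05.

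The order of the animals was alike for many axonemal genes. The mean over the 25 axonemal genes measured on all arrays was 0.24, 0.21, 0.04 and 0.06 in occlusion animals 1 to 4, against -0.05, -0.07, -0.52 and -0.14 in control animals 1 to 4. Every occlusion animal lay above every control animal, control 3 lay far below the other controls, and occlusion 1 and 2, on slide 1, lay above occlusion 3 and 4. Without control 3 the difference of these means was 0.23 in place of 0.33, and the median log2 difference was also 0.23 in place of 0.41, with 21 of 26 genes higher.

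Control 3 was the lowest of the 8 animals for 14 of the 25 axonemal genes (56%), against 24.3% of all genes. Occlusion 1 was the highest for 11 (44%, against 14.3% of all genes) and occlusion 2 for 7 (28%, against 9.67%). Occlusion 1 and 2 were both above occlusion 3 and 4 for 16 of 25 axonemal genes (64%) and for 6 of 9 transport genes (66.7%), against 22.5% of all genes.

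The transport mean over 9 genes was 0.08, 0.06, -0.04 and -0.11 in occlusion animals 1 to 4, against -0.05, -0.005, -0.11 and -0.05 in control animals 1 to 4. The groups overlapped, and the range over animals was 0.188, against 0.761 for the axonemal mean; with median centring in place of loess it was 0.757, against 0.885. Without occlusion 1 the median transport difference was -0.01, with 4 of 9 genes higher.

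**Figure D2:**
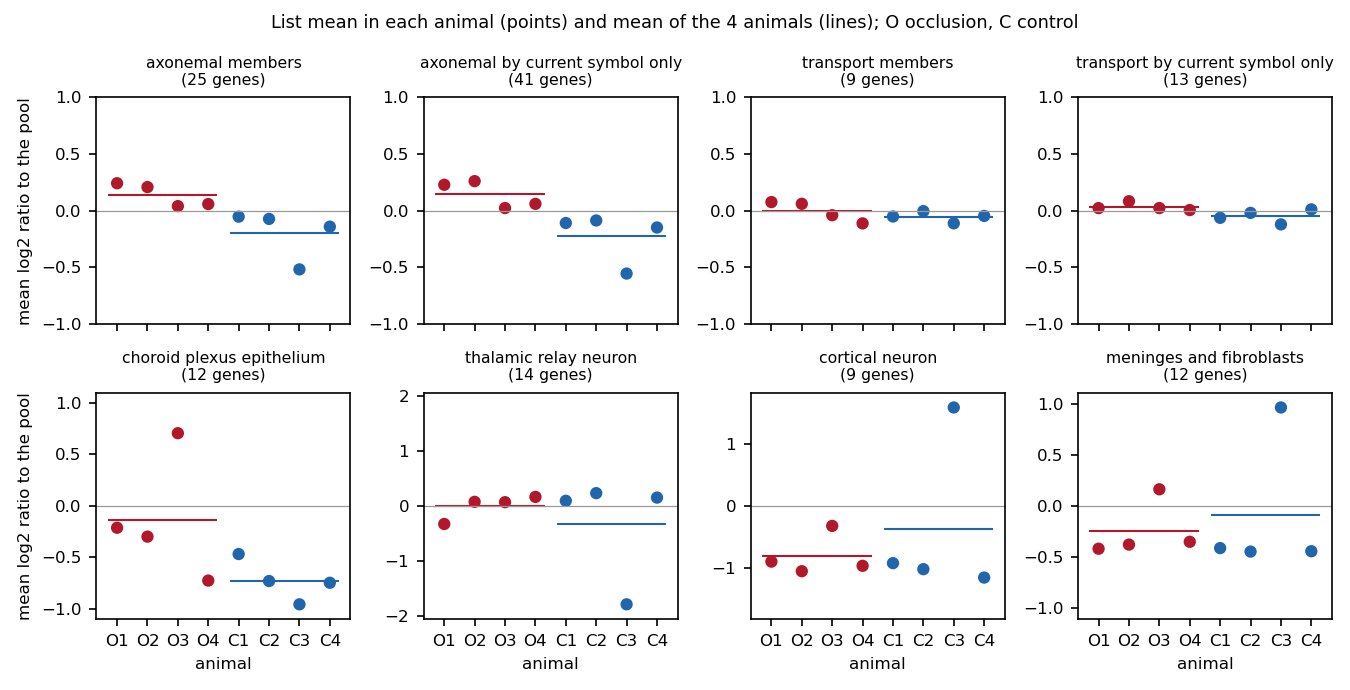
Mean log2 ratio to the pool (vertical axis) of 8 gene lists in each animal, with lines for the group means. The axonemal mean is lowest in control 3, at -0.52, whereas the choroid plexus mean is highest in occlusion 3, at 0.70, and the cortical neuron mean is highest in control 3.

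Within slides the size differed. On slide 1 alone the axonemal median was 0.64, with 22 of 26 genes higher, and on slide 2 alone it was 0.11, with 19 of 26 higher. The transport median was 0.13 on slide 1, with 9 of 9 genes higher, and -0.09 on slide 2, with 3 of 9 higher. Control 3 is on slide 1, so these medians alone do not separate the slide from that animal. Leaving control 3 aside, the axonemal mean on slide 1 was 0.24 and 0.21 in occlusion 1 and 2 against -0.14 in control 4. On slide 2 it was 0.04 and 0.06 in occlusion 3 and 4 against -0.05 and -0.07 in control 1 and 2. The part of the slide was not tested. With the slide as a block the medians were 0.41 and 0.06. Both slides held as many occlusion as control animals, so this block could not move the difference of a gene with all its values. The unchanged medians therefore say nothing about the slide.

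Foxj1, the transcription factor of motile cilia, was 0.87, 0.54, 0.46 and 0.14 in occlusion animals 1 to 4 against 0.45, -0.24, -1.15 and -0.22 in control animals 1 to 4. The groups overlapped, since control 1 lay above occlusion 4. The log2 difference was 0.80 (SE 0.30), and 0.51 (SE 0.21) without control 3.

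Dynein heavy chains, the motor subunits of the arms, were measured for 8 genes, of which 6 were higher, with a median of 0.37. Dnah1, an inner arm heavy chain, was 0.53, 0.57, 0.08 and 0.33 in occlusion animals 1 to 4 against -0.25, -0.01, -1.74 and -0.31 in control animals 1 to 4. Every occlusion animal lay above every control animal, and control 3 was far below the rest. The difference was 0.95 (SE 0.34), and 0.56 (SE 0.13) without control 3.

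Dnah3 was 0.10, 0.24, -0.01 and 0.11 in occlusion animals 1 to 4 against -1.20, 0.10, -0.71 and -0.43 in control animals 1 to 4. The lowest animal was control 1 and the groups overlapped. The difference was 0.67 (SE 0.24), 0.62 (SE 0.25) without control 3 and 0.45 (SE 0.18) without control 1. Dnah6 was 0.22, 0.42, -0.03 and 0.05 in the occlusion animals and -0.05, -0.24, -0.96 and -0.53 in the controls. The groups did not overlap, although occlusion 3 and control 1 were close. The difference was 0.61 (SE 0.19), and 0.44 (SE 0.14) without control 3.

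Dnah7 was 0.42, 0.41, -0.01 and -0.02 in occlusion animals 1 to 4 against -0.78, -0.11, -0.28 and -0.14 in control animals 1 to 4. The lowest animal was control 1, not control 3, and the groups did not overlap. The difference was 0.53 (SE 0.17), 0.54 (SE 0.19) without control 3 and 0.38 (SE 0.14) without control 1. The other heavy chains had differences of 0.22 (Dnah9), 0.05 (Dnah8), -0.12 (Dnah11) and -0.13 (Dnahc11). Dnahc11 kept its array name because the gene with that synonym lies on another chromosome than its probes. Which gene it measures is therefore unsettled, and its count as a separate heavy chain rests on the array name.

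Dnah11, a heavy chain of the outer arm, was -0.11, -0.08, -0.02 and -0.16 in occlusion animals 1 to 4 against 0.11, 0.05, -0.04 and -0.004 in control animals 1 to 4. The groups overlapped, with control 3 below occlusion 3.

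Of the other dynein arm proteins, 3 of 3 were higher, with a median of 0.51. Dnali1, a light intermediate chain, was 0.54, 0.47, -0.001 and -0.002 in occlusion animals 1 to 4 against 0.12, -0.30, -1.21 and -0.49 in control animals 1 to 4. Control 1 lay above occlusion 3 and 4, so the groups overlapped. The difference was 0.72 (SE 0.26), and 0.47 (SE 0.18) without control 3.

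Dnai7 (Casc1 on the array), an axonemal dynein intermediate chain family member, was 0.61, 0.29, 0.23 and 0.17 in occlusion animals 1 to 4, against -0.10, -0.36 and -0.10 in control animals 2 to 4, with no value for control 1. The groups did not overlap and the difference was 0.51 (SE 0.13), or 0.42 without control 3. Dnai2, an outer arm intermediate chain, was 0.19, 0.26, -0.04 and 0.21 in the occlusion animals and 0.10, -0.15, -0.86 and -0.20 in the controls. Occlusion 3 lay below control 1, so the groups overlapped, and the difference was 0.43 (SE 0.18), or 0.24 without control 3.

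All 4 tektins among the members were higher, with a median difference of 0.53. Tekt4 was 0.38, 0.28, 0.18 and 0.23 in occlusion animals 1 to 4 against -0.19, -0.12, -1.07 and -0.24 in control animals 1 to 4. The groups did not overlap, and the 4 occlusion animals lay within a narrow span. The difference was 0.67 (SE 0.20), and 0.45 (SE 0.07) without control 3.

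Tekt1 was 0.28, 0.38, 0.05 and 0.16 in the occlusion animals and 0.06, -0.18, -0.97 and -0.19 in the controls, a difference of 0.54 (SE 0.20), or 0.32 without control 3. Control 1 lay just above occlusion 3. Tekt2 was 0.44, 0.40, -0.10 and 0.22 against -0.28, 0.01, -0.75 and -0.11, a difference of 0.53 (SE 0.18), or 0.37 without control 3. Here control 2 lay above occlusion 3. Tekt3 was 0.24, 0.37, 0.01 and 0.04 against 0.02, -0.18, -0.65 and -0.11, a difference of 0.39 (SE 0.15), or 0.25 without control 3. Control 1 lay between occlusion 3 and 4, and control 3 was the lowest for all 4 of these tektins. It was the highest control for Tekt5 and Tekt5l1, which match the pattern by current symbol only. Their differences were 0.72 (SE 0.47) and 0.11 (SE 0.10). Tekt5 was above background on 1 occlusion array and 3 control arrays.

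The 8 Spag genes, named as sperm-associated antigens, are mixed in role, and 7 of 8 were higher, with a median of 0.12. Spag11a was -0.01, 0.11, 0.04 and 0.21 in occlusion animals 1 to 4 against -0.01, -0.36, -1.11 and 0.11 in control animals 1 to 4. The groups overlapped, and its difference of 0.43 (SE 0.24) was 0.17 without control 3. Spag8, a protein of the doublet lumen, and Spag1, a dynein arm assembly factor, had differences of 0.37 (SE 0.13) and 0.27 (SE 0.10). Without control 3 these were 0.25 and 0.21. Spag6, of the central pair, had a difference of -0.15 (SE 0.09), or -0.08 without control 3. The differences of Spag4, Spag5, Spag7 and Spag9 lay from 0.01 to 0.13.

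Spa17, a protein of the sperm tail, was 0.51, 0.36, 0.19 and 0.25 in occlusion animals 1 to 4 against 0.25, 0.17, -0.93 and 0.13 in control animals 1 to 4. The groups overlapped, control 3 lay far below all the others, and the difference of 0.42 (SE 0.24) was 0.14 without it. Ropn1, which also belongs to the sperm tail, was the gene with the lowest difference, -0.22 (SE 0.07), and its groups did not overlap. It was above background on 1 occlusion array and 3 control arrays, so it passed the filter through the controls, where it was higher. Without Spag4, Spag5, Spag7, Spag9, Ropn1 and Spag11a, a choice made after the values were seen, the axonemal median was 0.47.

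Of the axonemal genes, 5 had groups that did not overlap with occlusion higher (Dnai7, Dnah7, Dnah6, Tekt4 and Dnah1), beside 1.19% of all genes, and 1 with occlusion lower (Ropn1), beside 1.34%. A log2 difference of 0.3 or more in the higher direction was found for 15 of 26, beside 3.52% of all genes, and in the lower direction for 0 of 26, beside 1.68%. Without control 3 the count in the higher direction was 10 of 26, with no share of all genes given for that setting. The rule was proposed from this contrast, so nothing is read from these shares.

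**Figure D3:**
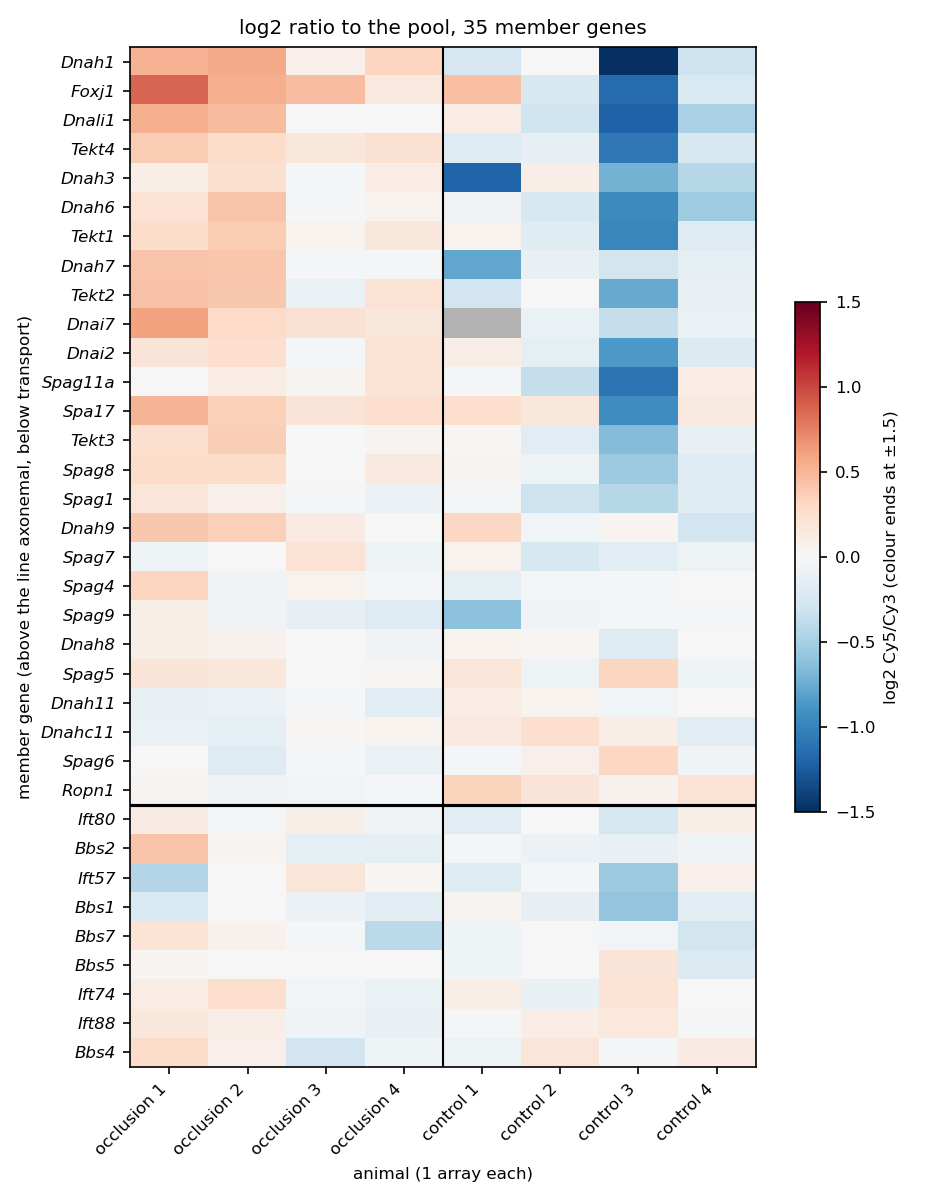
Log2 ratio to the pool (colour) of 35 member genes in each of 8 animals (columns), with axonemal genes above the line and transport genes below it; grey marks the missing value of Dnai7. The lowest values lie in control 3 for 14 of 25 axonemal genes, and the transport genes stay pale in most animals.

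Of the transport genes, Ift proteins carry cargo along the axoneme and Bbs proteins form the BBSome, which moves membrane proteins. Ift80 was 0.12, -0.02, 0.08 and -0.06 in occlusion animals 1 to 4 against -0.16, 0.00, -0.26 and 0.10 in control animals 1 to 4. Ift57 was -0.44, -0.003, 0.19 and 0.03 against -0.18, -0.01, -0.55 and 0.07. The groups overlapped in both genes, and both had a difference of 0.11, with SEs of 0.09 and 0.17. Without control 3 the differences were 0.05 for Ift80 and -0.02 for Ift57.

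Bbs2 was 0.42, 0.04, -0.15 and -0.14 in occlusion animals 1 to 4 against -0.02, -0.09, -0.11 and -0.05 in control animals 1 to 4. Bbs1 was -0.23, 0.01, -0.09 and -0.18 against 0.04, -0.13, -0.59 and -0.17. Only 1 occlusion animal stood high for Bbs2, and control 3 was the lowest for Bbs1. The differences were 0.11 (SE 0.12) and 0.09 (SE 0.13), and without control 3 that of Bbs1 was -0.04.

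Bbs7 was 0.21, 0.07, -0.01 and -0.40 in occlusion animals 1 to 4 against -0.07, 0.00, -0.04 and -0.27 in control animals 1 to 4. Bbs4 was 0.27, 0.08, -0.29 and -0.07 against -0.08, 0.18, -0.03 and 0.12. In both, the occlusion animals lay on either side of the controls. The differences were 0.06 (SE 0.13) and -0.05 (SE 0.12), and those of Bbs5, Ift74 and Ift88 lay from -0.03 to 0.03.

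Probes of one gene did not always move together. Of 15 genes with several probes, 11 had more than 1 tested probe, and in 2 of these the signs differed. Probes of the same sign also differed in size: the tested probes gave 0.67 and 0.02 for Dnah3, 0.42 and 0.05 for Spa17, and 0.01 to 0.53 for the 4 of Dnah7. For Dnah1 on chromosome 16 of rn3, the probe at chr16:6693878-6694418 gave 0.95, and the probe at chr16:6724493-6724552 gave -0.13 (SE 0.09), although both were well above background on 8 arrays. For Dnah11 on chromosome 6, the probe at chr6:145376152-145376211 gave -0.12 and the probe at chr6:145202591-145202650 gave 0.41. The latter was above background on 4 occlusion arrays and 1 control array, so it passed the filter through the group where it was higher. On rn3 the deposited coordinates of all 4 probes lie on the minus strand, and exon positions were not used here. A gene was represented by its brightest probe.

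**Figure D4:**
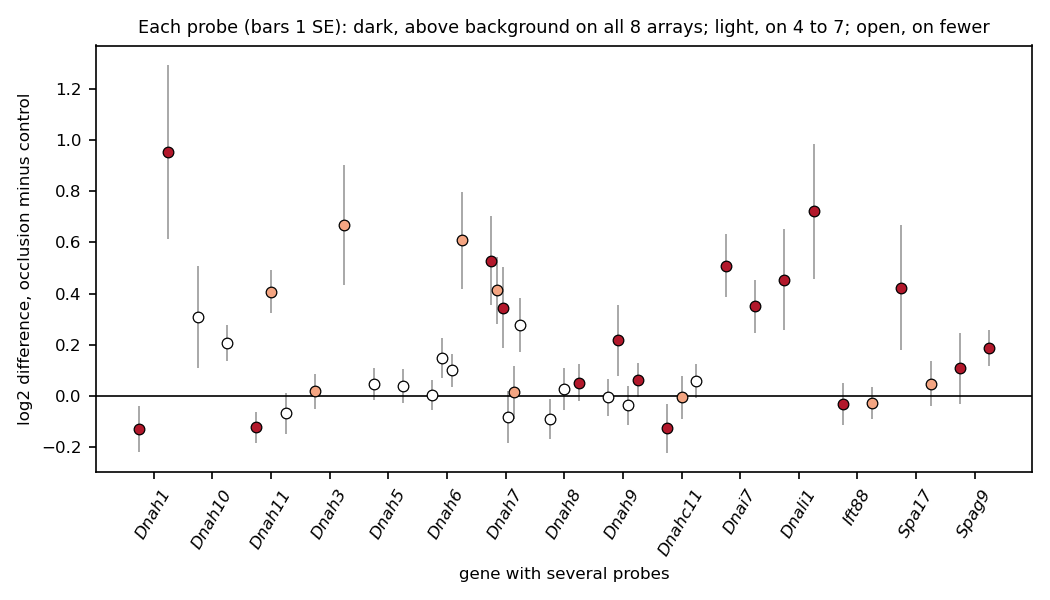
The log2 difference, occlusion minus control, of every probe of the genes with several probes (vertical axis; bars are 1 SE), shaded by the number of arrays on which the probe was well above background. The probes of Dnah1 lie at -0.13 and 0.95, and open symbols, mostly near 0, mark probes that were not tested.

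By signal, the median log2 difference was 0.03 for 11 axonemal probes above background on 0 arrays (range -0.09 to 0.31), 0.05 for 15 on 1 to 7 arrays (range -0.22 to 0.67) and 0.36 for 28 on all 8 arrays (range -0.13 to 0.95). A difference of 0.3 or more was found for 1, 4 and 16 of these probes. The share of all array probes at the same signal levels is not given, so nothing is read from these counts.

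Genes that the pattern finds by current symbol only, because the array carries an older name, were described in the same way. Of 42 such axonemal genes, 36 were higher, with a median of 0.27, and of 13 transport genes 10 were higher, with a median of 0.07. Without control 3 these were 34 of 42 with a median of 0.22, and 8 of 13 with a median of 0.06. They come from the same 8 animals and are no independent replicate. Cfap144 was 0.55, 0.78, 0.20 and 0.24 in occlusion animals 1 to 4 against -0.27, -0.42, -2.19 and -0.20 in control animals 1 to 4. Rsph9, of the radial spokes, was 0.21, 0.20, 0.19 and -0.04 against -0.35, -0.24, -0.09 and -0.23. The groups did not overlap in either gene, with differences of 1.22 (SE 0.41) and 0.37 (SE 0.08), or 0.74 and 0.41 without control 3, and control 3 was the lowest for Cfap144 but the highest control for Rsph9.

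Other genes of the pathway, outside the members, were read from lists that were also chosen with earlier results known. Counts cover the genes tested, and every pathway list held more, such as 52 other ciliary genes with 20 tested. Of the dynein arm genes 9 of 9 were higher, with a median of 0.50, among them Dnai3 at 0.64 (SE 0.18) and Dnai1 at 0.44 (SE 0.17). Of the central pair genes 9 of 11 were higher, with a median of 0.24, led by Hydin at 0.60 (SE 0.22) and Spef2 at 0.56 (SE 0.20). Of the inner proteins of the doublets 15 of 18 were higher, with a median of 0.16, and Spmip6 had a difference of 0.50 (SE 0.09).

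The nexin-dynein regulatory complex had 8 of 10 genes higher, with a median of 0.20, and the dynein arm assembly factors 8 of 10, with a median of 0.14. Of the transcription and basal body genes 9 of 12 were higher, with a median of 0.02, and of the other ciliary genes 18 of 20, with a median of 0.17. Other transport and BBSome genes were higher for 22 of 35, with a median of 0.02. In each of these lists 0 genes passed the adjusted threshold. Without control 3 the median was 0.29 for the dynein arms, 0.10 for the inner proteins of the doublets (12 of 18 higher), 0.09 for the assembly factors, 0.002 for the transcription and basal body genes (6 of 12 higher) and 0.06 for other transport and BBSome genes. Without that animal the difference was 0.37 for Hydin, 0.37 for Spef2, 0.47 for Dnai3, 0.27 for Dnai1 and 0.54 for Spmip6.

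Over 13416 genes with a symbol, those most like the axonemal mean over the 8 animals were Hydin, Lrrc51, Spef2, Tnni3, Liat1, Ropn1l, Cfap126, Dynlrb2, Itgb6, Eno4, Cfap144, Dnah2, Efhb, Akap14 and Dnah12. Their Pearson correlations with that mean ran from 0.989 to 0.969, as a description over 8 points that share an array and a pool with the mean. For the same 15 genes they ran from 0.901 to 0.967 without control 3, and from 0.941 to 0.987 with group means removed. Of the 15 genes, 8 were on a cilia list or match the pattern by current name. The share of such genes among the 13416 is not given, so nothing is read from this count.

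Lists of markers of other cell types were read beside the members. Counts cover the genes tested, which for some lists were fewer than those listed. The choroid plexus mean over 12 genes was highest in occlusion 3, at 0.70, and lay from -0.95 to -0.21 in the other animals, and Ttr, the transport protein of that epithelium, stood at 2.28 there and from -2.79 to -1.76 elsewhere. The axonemal mean in occlusion 3 was 0.04. Of the 12 choroid plexus genes, all were well above background in every occlusion animal and 12 of 12 had a difference above 0, with a median of 0.57. The list held 22 genes, of which 12 were tested. Detection on the control arrays is not given, and 4 arrays suffice for the filter. Genes of this list can therefore have passed it through the group where they were higher. The mean of 10 ependymal genes outside the axoneme was highest in control 3, at 0.29, the animal with the lowest axonemal mean. They came from a list of Rarres2, Mia, Prom1, Cd24, Tm4sf1, Pltp, Vim, S100a6, Hdc, Nnat and Dbi. Hdc is also on the hypothalamic neuron list. Control 3 was the highest animal for the cortical and meningeal means too, so this mean does not show how much ependyma it held. Of the 12 choroid plexus genes all were also higher without control 3, with a median of 0.35. The animal that stood out for this list was occlusion 3, however, and no value without it is given. The choroid plexus mean was -0.21, -0.30 and -0.72 in occlusion 1, 2 and 4, against -0.72 for the mean of the controls.

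Some other cell type lists had positive medians too, but not all. Ependymal genes outside the axoneme were higher for 6 of 11, with a median of 0.008 (7 of 11 and 0.05 without control 3). Genes of tanycytes and the hypothalamic ventricle lining were higher for 2 of 5, with a median of -0.02 (-0.04 without control 3). Hypothalamic neuron genes were higher for 10 of 12, with a median of 0.34 (0.31 without control 3), and astrocyte genes for 8 of 12, with a median of 0.16 (0.09 without control 3). The astrocyte mean, like the axonemal mean, was lowest in control 3, at -0.26. Thalamic relay neuron genes were higher for 14 of 14, with a median of 0.30, and without control 3 for 3 of 14, with a median of -0.16. Medial habenula genes were higher for 7 of 8, with a median of 0.26, and without control 3 for 4 of 8, with a median of -0.03.

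Cortical neuron genes were higher for 2 of 11, with a median of -0.44, and without control 3 for 8 of 11, with a median of 0.11. Genes of meninges and fibroblasts were higher for 2 of 13, with a median of -0.11, and without control 3 for 10 of 13, with a median of 0.09. The part of these markers in the axonemal values was not tested.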

How the data were processed

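RNA of 8 rats was read on two-colour arrays. Per the file headers, the authors extracted the scans with Agilent Feature Extraction 9.5.1.1, and the deposited files hold linear spot intensity in both channels and a log10 ratio. The authors' deposited value table holds those log10 ratios, rounded: all 45018 features lay within 0.005 on each array, and each column had a median of 0, with its centring unknown. Intensities were corrected by normexp (offset 50) and normalized by loess within arrays, with control and outlier spots at weight 0. A probe was kept where Cy5 was flagged as clear of background on 4 or more of 8 arrays, with 2 values per group, and the brightest probe stood for a gene. Names came from a GRCr8 RefSeq table: 10735 probes matched by accession, 2283 by gene ID, 5256 by symbol and 3545 by synonym, and 19193 kept the array's name. Groups were compared with limma 3.58.1 in R 4.3.3 (lmFit, eBayes, two-sided) over all 26897 genes, checked on simulated data. Samples are separate animals per the labels' protocols.

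Members, lists and tests were chosen with earlier results of these data known. Named with values in every animal were Foxj1, the 14 axonemal and 6 transport genes of largest absolute difference, and those with the 3 largest within-group SDs per class, with genes whose probes differ in sign; up to 3 genes per list with the smallest p; and the 15 genes most like the axonemal mean. The 3-base and 4-base RFX pair motifs were added after promoter letters had been read. Alternatives covered background correction, normalization, the dim-probe filter, probe choice, slide and single animals. Probe positions are the deposited rn3 ones, and no genome of that build was used here.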

Additional observations from a re-analysis of the deposited data

Results flagged for a closer look

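Of 63 groups of 4 values checked for one animal far from the others, 8 were past Dixon's 95% critical value. Chance gives about 1 in 20 for independent checks. These checks share the same 8 animals, so 1 unusual array can be counted repeatedly and no excess is read from the count. Of the 8, 6 were in control 3. Among members, control 3 stood far below the other controls for Dnah1 (-1.74), Spa17 (-0.93) and Tekt4 (-1.07). Among cell type means, control 3 stood apart for thalamic relay neurons (-1.79), cortical neurons (1.59) and meninges and fibroblasts (0.96). Occlusion 3 stood apart for meninges and fibroblasts (0.16), and occlusion 4 for astrocytes (-0.002).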

How the results depend on the processing

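No member passed the adjusted threshold under any alternative run. The axonemal median log2 difference stayed above 0 in all of them. On all 8 arrays it lay between 0.31 (array weights) and 0.53 (deposited ratios). On slide 1 alone it was 0.64 and on slide 2 alone 0.11. Leaving out one animal at a time gave 0.23 (without control 3) to 0.45. The transport median was -0.088 on slide 2 alone, and -0.01 to 0.09 leaving out one animal. With Cy5 alone, quantile-normalized, on all 8 arrays, 4 of 9 transport genes and 19 of 26 axonemal genes were higher. The axonemal minus transport median was 0.18 to 0.45 leaving out one animal, 0.51 on slide 1 alone, 0.20 on slide 2 alone and 0.50 with the deposited ratios. Without control 3, 1 gene of all those tested passed, Bcl3, which is no member, so the count over all genes was 0 to 1. The cause was not tested. Another 48 values for single genes or animals moved by more than the spread between animals. Control 3 was the lowest animal for the axonemal mean in all 9 ways of computing values, whereas the range of the transport mean was 0.757 with median centring and 0.188 with loess. Replicate numbers were not taken to pair the animals. Deviations of same-numbered animals correlated at -0.13, 0.14, 0.03 and 0.08, which cannot settle whether the animals were handled in pairs. With the replicate block the axonemal median was 0.40, the transport median 0.06 and their difference 0.35, and 0 genes passed. This block is balanced over the groups, so it could not move the difference of a gene with all its values. Signal over background left 16 member probes untested.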

Other observations

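Tnni3, a troponin of heart muscle, was 0.52, 0.63, 0.03 and 0.10 in occlusion animals 1 to 4 against 0.05, -0.23, -0.96 and -0.30 in control animals 1 to 4, an order of animals close to that of the axonemal mean (Pearson 0.979 over 8 arrays). In the RefSeq gene order of GRCr8 its neighbours are Dnaaf3, a dynein arm assembly factor, and Tnnt1. Of the 15 genes most like the axonemal mean, it was the only one next to a gene of a cilia list. The share of all genes that lie beside such a gene is not given, and Dnaaf3 was not among the genes tested. Nothing is read from this neighbour. The motif of GTTGC and GCAAC with 3 bases between them, found by reading member promoters, was in 5 of 23 axonemal promoters but in 0 of 34 promoters of axonemal genes found by current symbol only.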
